A study of Homo sapiens with 4 samples.

Results

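The ERBB receptors and the EGF ligands that bind them were read in A549, a human line derived from a lung adenocarcinoma, in which the long noncoding RNA EPEL had been targeted with siRNAs. The members are 10 genes chosen by name, among the 10921 genes measured well enough to be tested: the 4 receptor genes EGFR, ERBB2, ERBB3 and ERBB4, the 5 ligand genes AREG, EREG, HBEGF, TGFA and BTC, and the receptor inhibitor gene ERRFI1. Every probe that the annotation of the array platform assigns to 1 of these genes was taken, 17 probes in all, covering 9 of the 10 members. No named probe of AREG was available, so amphiregulin was not analysed here. Of the 17 probes, 8 were detected on all 4 arrays, 1 on 3 arrays and 8 on none. Detected means a detection p-value under 0.01, that p-value counting how often negative control beads match or exceed the probe's brightness.

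There were 4 Illumina HumanHT-12 BeadChip arrays, 1 of cells given a non-targeting siRNA (control) and 1 for each of 3 siRNAs against EPEL. The latter are called here siRNA 1, siRNA 2 and siRNA 3. Each siRNA was used at 50 nM with a cationic lipid, the medium was renewed after 4 h, and the labels place the knockdown measurement at 48 h. The siEPEL group therefore holds 3 different siRNAs with 1 array each, and the control group holds 1 array. No label describes separately grown cultures, so p-values measure only the spread between these samples, siRNA differences included. Levels are log2 of the background-corrected, quantile-normalized signal, a log2 ratio is the difference of such a level from that of the control array, and fold changes of dim probes are understated. Differences were taken between arrays within a probe, since the brightness of different probes does not compare the amounts of their transcripts.

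Receptors of this family are tyrosine kinases of the cell surface that pair with one another when an EGF-like ligand binds, and then signal through RAS and ERK and through PI3K and AKT. ERBB2 binds no known ligand and ERBB3 has little kinase activity, so each acts mainly as a partner. The ligands are made as membrane-bound precursors and are released by ADAM proteases, and several are themselves induced by ERK signalling. In lung adenocarcinoma EGFR is a frequently mutated driver.

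Detection per array ranged from 35.0% to 36.2% of the 47228 probes, and the median raw signal from 65.9 to 68.3. The level of EPEL was not analysed here, since 0 probes carried that name, so the strength of the knockdown by each siRNA is not known from these arrays. Epithelial markers (EPCAM, KRT8, KRT18, KRT19 and CDH1) were detected on all 4 arrays in 5 of 5 cases. Of the A549 markers with a probe, 4 of 5 were detected on all 4 arrays and the AKR1C1 probe was detected on none. Endothelial markers were detected on no array (0 of 3), and neither were the leukocyte markers PTPRC and CD3E, while CD14 was detected on all 4. Of the fibroblast markers only COL1A1 was detected, on 2 arrays.

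No member differed between siEPEL and control cells by more than the test allowed for. With limma, 0 of the 9 member probes tested had an adjusted p under 0.05, in either direction, and all 9 had an adjusted p of 1.00. Over all 18200 probes tested the calls were also 0 higher (0.0%) and 0 lower (0.0%). At an unadjusted p under 0.05 there were 0 of the 9 member probes against 2.1% of all probes. The 95% interval of the log2 fold change included 0 for all 9, and over them the intervals reached from -0.87 to 0.76. Differences between these bounds were not resolved by 4 arrays. An exact permutation test of 1 array against 3 cannot go below p = 0.25, so no single gene could be called that way.

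Among the 7 member genes tested, each taken by its brightest probe, EREG and ERRFI1 lay above the control with all 3 siRNAs, and TGFA lay below it with all 3. That is 2 of 7 above and 1 of 7 below, beside 20.5% and 20.3% of all genes, so the members stood on 1 side of the control about as often as genes at large. EGFR, ERBB2, ERBB3 and HBEGF had ratios of both signs. The median ratio of the 7 genes was -0.01, -0.22 and 0.05 with siRNAs 1, 2 and 3, and over all genes it was 0.00 for each of them. The ratios of 1 gene share the control array and are not independent of one another.

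The start regions of the 3 genes that lay on 1 side are shown so that their makeup can be compared, from RefSeq on build GRCh38.p14, as the 250 bases before the annotated start, 5′ to 3′ on the gene's strand. Capitals mark a TATA box (TATAAA) or a GC box (GGGCGG), each on either strand. EREG is at chr4:74364895-74365144 (plus strand), ERRFI1 at chr1:8026310-8026559 (minus strand) and TGFA, at the first of its 2 listed starts, at chr2:70553827-70554076 (minus strand).
EREG: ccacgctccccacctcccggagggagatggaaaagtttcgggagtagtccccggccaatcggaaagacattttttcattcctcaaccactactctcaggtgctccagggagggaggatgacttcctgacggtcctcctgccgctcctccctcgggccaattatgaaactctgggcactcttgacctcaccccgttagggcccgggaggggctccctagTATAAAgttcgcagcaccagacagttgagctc
ERRFI1: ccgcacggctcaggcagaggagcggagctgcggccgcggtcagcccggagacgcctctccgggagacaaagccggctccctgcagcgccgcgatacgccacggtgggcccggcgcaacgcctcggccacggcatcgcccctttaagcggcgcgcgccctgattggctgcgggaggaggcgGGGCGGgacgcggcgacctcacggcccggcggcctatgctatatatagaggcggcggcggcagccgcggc
TGFA: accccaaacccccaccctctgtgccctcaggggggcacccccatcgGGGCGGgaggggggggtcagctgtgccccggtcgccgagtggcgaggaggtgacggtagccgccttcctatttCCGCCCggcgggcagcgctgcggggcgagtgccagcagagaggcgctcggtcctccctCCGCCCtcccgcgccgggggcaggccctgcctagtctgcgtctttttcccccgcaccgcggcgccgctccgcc

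The EREG window held 1 TATA box, whose first base lies 32 bases before the start, and no GC box. The ERRFI1 window held 1 GC box at 70 bases and the TGFA window shown 3, at 204, 131 and 73 bases. The ERRFI1 window also holds the run tatatata near its downstream end, which a search for TATAAA does not count. The windows of EREG and ERRFI1 are therefore not shown to differ in having such an element. The window of the second TGFA start, not shown, held 0 GC boxes and 0 TATA boxes, with a GC content of 64.0%. GC content of the windows shown was 58.0% for EREG, 75.2% for ERRFI1 and 75.6% for TGFA, against a median of 58.0% over 35116 promoters. A TATA box of these letters occurs in 10.7% of those promoters and a GC box in 42.6%. Among the members, 9 had a listed window. E2F sites, searched as TTTCCCGC, TTTCGCGC and TTTGGCGC, were found in no member window and in 2.32% of all promoters. An AP-1 site (TGANTCA) was found for EGFR and ERBB2 (6.57% of all promoters). The EGFR matches lay only in the window of its downstream start (GC content 38.8%), and its upstream window (73.6%) held 0. They read TGAGTCA and TGACTCA, and the ERBB2 match reads TGATTCA. An ETS site (CCGGAAGT) was found in the window of ERBB2 (3.42%) and a CRE (TGACGTCA) in that of AREG (1.65%). These are matches of letters on either strand, not evidence of binding.

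**Figure D1:**
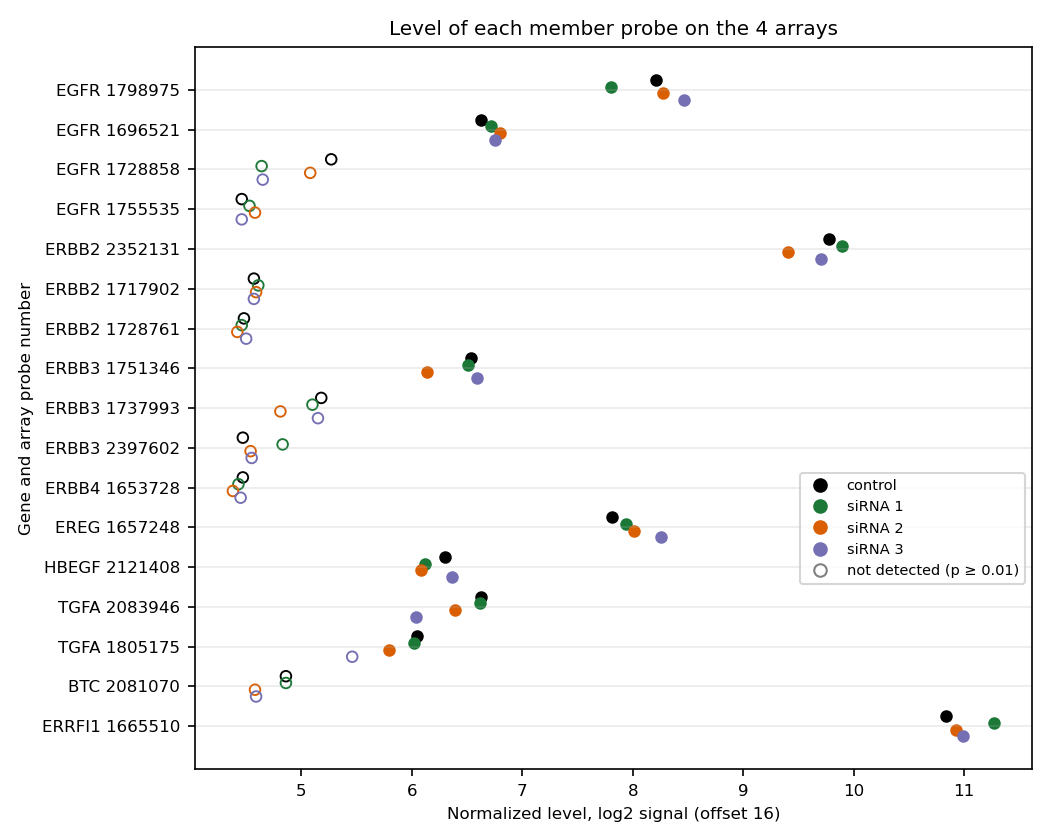
Normalized level (x axis, log2 signal) of each of the 17 member probes (y axis) on the control array (black) and with siRNAs 1, 2 and 3 (colours), with open circles where the probe was not detected. The 8 probes, of 5 genes, with only open circles sit at the background end, and the arrays of each detected probe lie close together; positions of different probes are not comparable.

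EGFR, the receptor of EGF, TGF-alpha and amphiregulin, gave the widest spread between siRNAs of the 7 member genes. Its brightest probe, annotated to the full-length transcript NM_005228, had a level of 8.21 in the control and 7.80, 8.27 and 8.46 with siRNAs 1, 2 and 3. siRNA 1 was the low array and siRNA 3 the high one, and the control lay between them. These are 0.756-fold, 1.04-fold and 1.19-fold the control, a span of 0.65 on the log2 scale where the median span of all genes was 0.32. The siEPEL mean was 8.17 ± 0.34 (SD, n = 3), a log2 fold change of -0.03 ± 0.27 (SE). Here and below, the SE comes from limma, which draws on the spread of all tested probes, so it does not follow from the SD of 1 probe. Without siRNA 1 that value turned to 0.15.

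The other EGFR probes did not repeat this pattern. Probe ILMN_1696521, annotated to NM_201282, a transcript of a shorter receptor form, read 6.63 in the control and 6.72, 6.80 and 6.75 with siRNAs 1, 2 and 3. All 3 siEPEL arrays were just above the control here, by 0.13 ± 0.20 (SE), and with siRNA 1 the 2 probes differed by 0.49. A further probe of the same transcript (ILMN_1755535) was detected on no array, as was the probe of NM_201284, another short form. The files used here do not place the probes on the gene, so which receptor form each one reads was not determined.

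ERBB2, the shared partner of the other receptors, was read well by 1 of its 3 probes. ILMN_2352131 stood at 9.78 in the control and at 9.89, 9.41 and 9.70 with siRNAs 1, 2 and 3. Only siRNA 2 stood apart, at 0.774-fold the control, and the control lay inside the siEPEL range. The log2 fold change was -0.11 ± 0.24 (SE), with a 95% interval from -0.65 to 0.43. Without siRNA 2 it was 0.01. ILMN_1728761, annotated to the same transcript NM_004448, was detected on no array, with raw signals from 48.5 to 53.6. The probe of the other ERBB2 transcript was not detected either.

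ERBB3, the kinase-poor receptor for neuregulins, also had its lowest level with siRNA 2. Its detected probe, ILMN_1751346, read 6.54 in the control and 6.51, 6.14 and 6.59 with siRNAs 1, 2 and 3. The siRNA 2 array was at 0.757-fold and the others within 0.05 of the control on the log2 scale. The log2 fold change of -0.13 ± 0.24 (SE) became 0.01 without siRNA 2. Both probes of NM_001005915, a transcript of a short secreted form, were detected on no array. ERBB4, the other neuregulin receptor, was not detected on any array by its single probe, the lowest of whose detection p-values was 0.639.

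On the siRNA 2 array, where ERBB2 and ERBB3 were low, the brightest probes of all 5 epithelial markers also lay below the control, and some other markers lay above it. This comparison was chosen after the values were seen, so it describes the arrays and tests nothing. The epithelial markers lay below the control with siRNA 2, where 49.7% of all genes did, at a median log2 ratio of -0.41. KRT8 was at -0.60, KRT18 at -0.47, CDH1 at -0.41, KRT19 at -0.21 and EPCAM at -0.12. A second KRT18 probe, detected on all 4 arrays, stood at 0.46, -0.12 and -0.28 with siRNAs 1, 2 and 3, so it was lowest with siRNA 3. With siRNAs 1 and 3 the marker medians were 0.04 and 0.07. The summed processed intensity of the marker probes was 11350 in the control and 11113, 8223 and 11963 with siRNAs 1, 2 and 3. KRT8 carried most of that sum, which without it was 4192 in the control and 4339, 3491 and 4413. The fibroblast marker COL1A1, not detected in the control, stood at 0.50, 0.92 and 0.08 with siRNAs 1, 2 and 3, and CD14 at -0.03, 0.31 and 0.53. A second CD14 probe, detected on all 4 arrays, stood at -0.02, 0.02 and 0.33, so it was level with the control with siRNA 2. Of the 4 A549 markers tested, 3 lay below the control with siRNA 2, at a median over the 4 of -0.08. LRIG1, which marks ERBB receptors for degradation, was set beside them because it was also lowest with siRNA 2, at -0.53. The member HBEGF was lowest with siRNA 2 too, at -0.22, but close to its -0.19 with siRNA 1. All 4 arrays are labelled as the A549 line, so the marker genes were read here as genes of that line and not as counts of cell types. Their part in the ERBB2 and ERBB3 values was not tested. In bulk RNA fewer cells expressing a gene and less RNA of it per cell cannot be told apart.

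**Figure D2:**
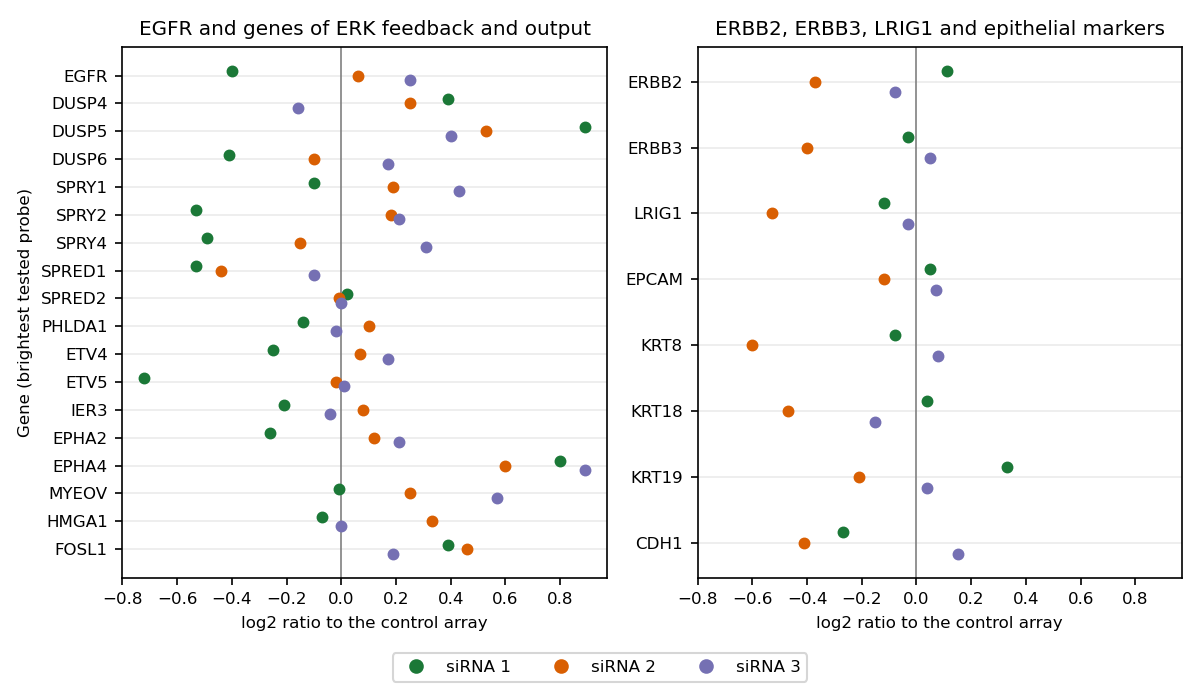
Log2 ratio to the control array (x axis) with each siRNA (colours) for EGFR and the 17 tested genes of ERK feedback and output (left) and for ERBB2, ERBB3, LRIG1 and the 5 epithelial markers (right), each by its brightest probe. On the left, siRNA 1 is below 0 for EGFR and for 12 of the 17 genes. On the right, siRNA 2 is the lowest point of all 8 genes by these probes, where ERBB2, ERBB3 and LRIG1 were picked for being lowest with it. Both groupings were made after the values were seen.

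TGFA, a ligand of EGFR, was read by 2 probes that matched closely. ILMN_2083946 read 6.63 in the control and 6.62, 6.39 and 6.04 with siRNAs 1, 2 and 3. ILMN_1805175, annotated to another transcript, read 6.05 in the control and 6.02, 5.79 and 5.46. siRNA 1 was nearly level with the control, siRNA 2 lower and siRNA 3 lowest by both probes, and their ratios differed by at most 0.03. With siRNA 3 the folds were 0.663 and 0.660, past 1.5-fold down. These 2 of the 9 member probes, both of TGFA, were the only ones past 1.5-fold with siRNA 3, beside 2.75% of all probes. None of the 9 passed it with siRNA 1 or siRNA 2. By brightest probe 1 of the 7 member genes passed it with siRNA 3, 0 with siRNA 1 and 0 with siRNA 2, against 2.17%, 5.12% and 5.74% of all genes. The log2 fold changes over the 3 siRNAs were -0.28 ± 0.26 and -0.30 ± 0.25 (SE), with limma p of 0.300 and 0.265 before adjustment. The dimmer probe was not detected with siRNA 3. The brighter one was detected on all 4 arrays, with raw signals of 141 in the control and 136, 125 and 106 with the siRNAs.

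EREG encodes epiregulin, a ligand of EGFR and ERBB4. Its probe read 7.81 in the control and 7.94, 8.01 and 8.26 with siRNAs 1, 2 and 3. All 3 siEPEL arrays were above the control, with siRNA 3 the highest, where TGFA was lowest. The folds were 1.09, 1.15 and 1.36, and the log2 fold change was 0.26 ± 0.22 (SE), with a 95% interval from -0.23 to 0.76. The raw signals were 267 in the control and 279, 297 and 353 with the siRNAs.

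HBEGF, the heparin-binding ligand of EGFR and ERBB4, varied least between siRNAs of the 7 genes, with a span of 0.28. It read 6.30 in the control and 6.12, 6.08 and 6.36, so siRNAs 1 and 2 were below the control and siRNA 3 just above it. The log2 fold change was -0.12 ± 0.21 (SE). BTC, encoding betacellulin, was detected on no array, with detection p-values from 0.0805 in the control to 0.357 with siRNA 3.

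ERRFI1 encodes MIG6, which binds the kinase domain of the receptors, blocks it and is induced by their signalling. Its probe read 10.84 in the control and 11.27, 10.93 and 10.99 with siRNAs 1, 2 and 3. All 3 siEPEL arrays were above the control, siRNA 1 by the most, at 1.35-fold, and siRNA 2 by only 1.06-fold. The log2 fold change was 0.22 ± 0.22 (SE), with a 95% interval from -0.28 to 0.72. With median scaling in place of quantile normalization ERRFI1 no longer lay above the control with siRNA 2. The array with the highest ERRFI1 was the one with the lowest EGFR by its brightest probe. On that array the other detected EGFR probe was just above the control, at 0.09. This pairing was picked after the values were seen, and a link was not tested.

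**Figure D3:**
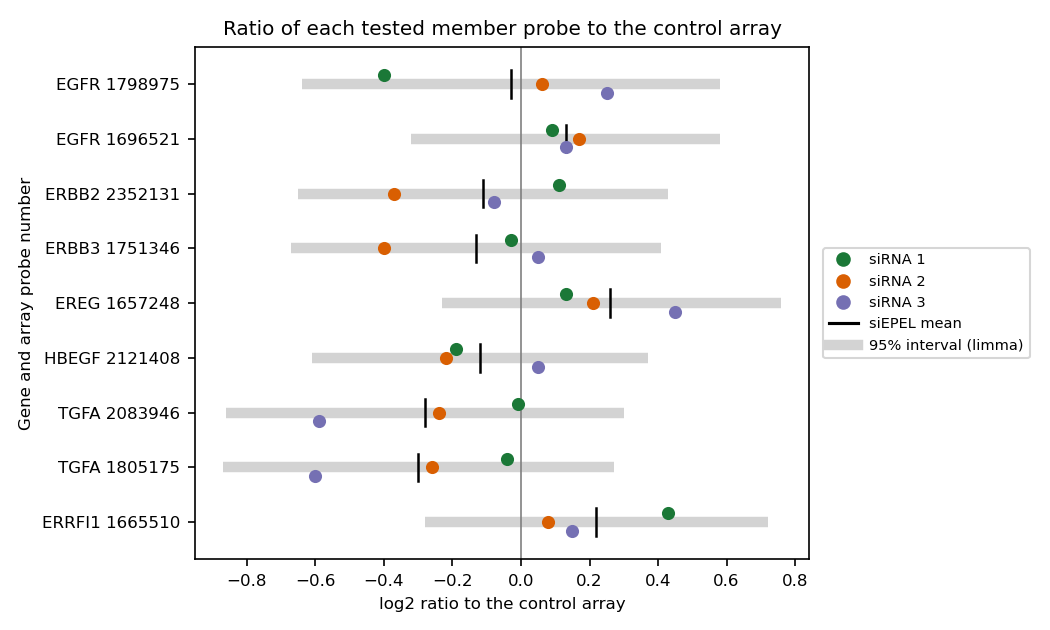
Log2 ratio to the control array (x axis) of the 9 tested member probes (y axis) with each siRNA (coloured points), the siEPEL mean (black tick) and its 95% interval from limma (grey bar). Every interval crosses 0, both TGFA probes show the same order of siRNAs, and the 2 EGFR probes part with siRNA 1.

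The genes around the receptors were read in 7 lists of 88 genes, of which 67 were tested, and 0 passed the threshold. Of the 67, 13 lay above and 13 below the control with all 3 siRNAs, 19.4% in each direction beside 20.5% and 20.3% of all genes. At an unadjusted p under 0.05 there were 3 of the 67, DUSP5, INPP4B and EPHA4, beside 1.71% of all genes. Of these, EPHA4 was not detected in the control and so was tested only through the siEPEL arrays. The listed genes with no named probe were not analysed here.

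Of the other ERBB ligands, NRG1 and NRG4 were tested. NRG1, a neuregulin that binds ERBB3 and ERBB4, read 10.28 in the control and 9.80, 9.84 and 10.12 with siRNAs 1, 2 and 3 by its brightest probe, a log2 fold change of -0.36 ± 0.22 (SE). A second NRG1 probe, detected on all 4 arrays, read 9.66 in the control and 9.43, 10.19 and 9.79, so the probes disagreed in sign for siRNAs 2 and 3. NRG4, a ligand of ERBB4, stood at -0.36, -0.16 and 0.04. EGF itself was not detected.

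The ligand shedding list had 3 of 8 genes above and 1 below with all siRNAs. The protease gene ADAM9 was at 0.50, 0.01 and 0.17, and RHBDF1, an inactive rhomboid that escorts ADAM17, at 0.15, 0.14 and 0.25. ADAM17, the main sheddase of TGF-alpha and epiregulin, was read by 3 probes detected on all 4 arrays, which disagreed. The brightest stood at 0.47, -0.39 and 0.02, ILMN_1765779 at 0.41, -0.05 and -0.03, and ILMN_1908488 at 0.20, 0.38 and 0.43.

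Among the adaptors and effectors, 3 of 11 lay above and 3 below. SOS1, which loads RAS with GTP, was at 0.24, 0.09 and 0.44, and the adaptor SHC1 at 0.17, 0.08 and 0.45. A second SHC1 probe, detected on all 4 arrays, stood at 0.21, -0.07 and 0.07. Receptor damping and turnover had 1 of 13 above and 4 below. The 2 named by the rule were EPS15, an endocytic adaptor, at -0.26, -0.37 and -0.20, and LRIG1 at -0.12, -0.53 and -0.03. Another LRIG1 probe, detected on all 4 arrays, stood at -0.03, -0.41 and 0.01, so it was not below the control with siRNA 3. In the RAS, RAF, MEK and ERK list 1 of 6 lay above and 1 below, the latter being ARAF at -0.22, -0.29 and -0.03.

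The ERK feedback and output list, genes that ERK induces and that in part damp it, had 3 of 17 above and 1 below. DUSP5, a nuclear ERK phosphatase, read 10.24 in the control and 11.13, 10.78 and 10.64 with siRNAs 1, 2 and 3. All 3 siEPEL arrays were above the control, and the ratios were 1.86-fold, 1.45-fold and 1.32-fold. Its log2 fold change was 0.61 ± 0.24 (SE), with a limma p of 0.0341 and an adjusted p of 1.00. SPRED1, an inhibitor of RAF activation, lay below with all 3, at -0.53, -0.44 and -0.10.

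The ratios of that list were also set beside those of EGFR by its brightest probe, a comparison chosen after the values were seen. That probe was below the control with siRNA 1 and above it with siRNA 3. The other detected EGFR probe was above the control with all 3, at 0.09, 0.17 and 0.13, and did not show this pattern. With siRNA 1, 12 of 17 lay below the control, where 49.7% of all genes did, at a list median of -0.14. With siRNA 3, 12 of 17 lay above it, where 49.5% of all genes did, at a median of 0.17. These were in part different genes, and 8 of 17 did both, beside 19.5% of all genes. The pattern was not particular to this list. In the PI3K and AKT list 7 of 10 lay below with siRNA 1, 8 of 10 above with siRNA 3, and 5 of 10 did both. Since the pattern was picked from these values, the counts describe the arrays and test nothing. The receptor signalling antagonists SPRY2 (-0.53, 0.18 and 0.21) and SPRY4 (-0.49, -0.15 and 0.31) were among the 8 of 17 in the ERK list. So was the ERK phosphatase gene DUSP6 (-0.41, -0.10 and 0.17). ETV5, an ETS factor, was at -0.72, -0.02 and 0.01 by its brightest probe, all but level with the control with siRNA 3. Its other probe, detected on all 4 arrays, stood at -0.29, 0.23 and 0.29. DUSP5 (0.89), EPHA4 (0.80) and FOSL1 (0.39) were above the control with siRNA 1, so the ERK list did not move as one. DUSP4, at 0.39, 0.25 and -0.16, went the other way with both siRNA 1 and siRNA 3. Each siRNA has 1 array, so no test of the difference between siRNAs could be made.

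In the PI3K and AKT list 2 of 10 lay above and 2 below. INPP4B, a phosphatase of PI3K lipid products, read 7.98 in the control and 8.35, 8.69 and 8.62, above it with all 3 siRNAs, a log2 fold change of 0.57 ± 0.22 (SE) with a limma p of 0.0303 and an adjusted p of 1.00. PIK3R1, the regulatory subunit of PI3K, was at -0.49, -0.49 and -0.07.

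**Figure D4:**
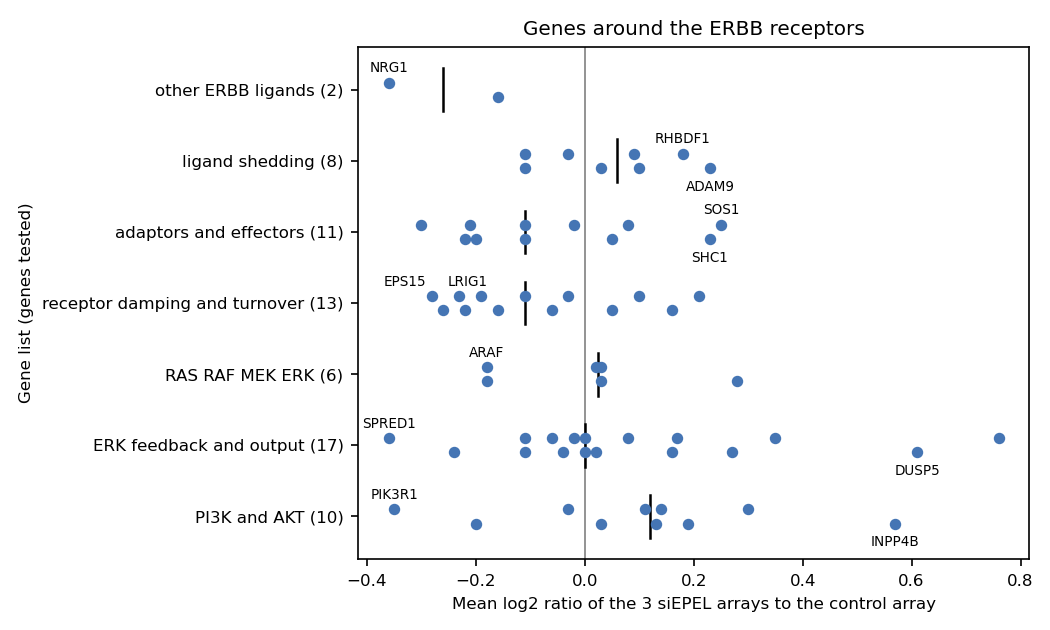
Mean log2 ratio of the 3 siEPEL arrays to the control array (x axis) for each tested gene (points) of the 7 lists around the receptors (y axis), with the list median as a black tick. Medians lie between -0.26 and 0.12, and DUSP5 and INPP4B are the labelled genes furthest to the right, with EPHA4 beyond them at 0.76.

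The genes whose ratios were nearest to those of EGFR, among 9775 genes detected on all 4 arrays, were OSBP2, ZMYND11 and TBC1D4. Nearness was the Euclidean distance over the 3 log2 ratios, which was 0.0498, 0.0561 and 0.0584. OSBP2 was at -0.36, 0.05 and 0.23 and EGFR, by its brightest probe, at -0.40, 0.06 and 0.25. With 3 ratios per gene and 9775 genes, such near matches describe these arrays only.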

How the data were processed

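Expression was measured on 4 BeadChip arrays of A549 cells, grouped by the siRNA that the labels name. The deposited intensities are mean bead signals per probe on a linear scale, with no correction or scaling, and the submitters' processing notes name BeadStudio as their source. Beside each stands a deposited detection p-value, in steps of 1 in 770. A second deposited table holds the authors' processed intensities, which order the probes of each array as the raw signal does (Spearman correlation 1). They are linear, partly below 0 and nearly alike in median (10.7 to 10.8), but their method and centring are unknown here.

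The raw signals were corrected and normalized by neqc (limma 3.58.1, R 4.3.3), that is normexp from the detection p-values, quantile normalization and log2 after an offset of 16. All 18200 probes detected (p under 0.01) on 1 or more arrays entered lmFit and eBayes, 2-sided, and were adjusted together after Benjamini and Hochberg, with a threshold of 0.05. The 2 residual degrees of freedom come from the siEPEL arrays alone, so the single control array is taken to vary as they do. To these eBayes adds 6.83 prior degrees of freedom estimated from all tested probes. Each SE, interval and p therefore rests more on the spread common to all probes than on that of the probe itself. Of 47228 probes, 30113 carried 1 gene symbol in the platform annotation, 8 several and 17107 none here, and RefSeq gene identifiers changed 0 symbols. Each gene was read by its brightest tested probe. Precision is limited by the number of arrays, with a median SE of 0.22.

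The members and the 7 lists were chosen with earlier results of these data known. All member probes were named. In each list the rule named the 2 genes furthest from the control by mean ratio among those detected on all 4 arrays and on 1 side with all 3 siRNAs. NRG4, ADAM17, SPRY2, SPRY4, DUSP4, DUSP6, ETV5, EPHA4 and FOSL1 were added after their values were seen. Promoter windows came from RefSeq. Alternatives changed the background step, the scaling (by median or cyclic loess), the offset (50), the detection filter, the variance trend or the probe summary (a mean per gene), used the authors' values (floored at 16), or left out 1 siRNA.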

Additional observations from a re-analysis of the deposited data

How the results depend on the processing

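Under 12 alternative fits the count of probes past the threshold was 0 each time (limma), as it was with all data, while probes at an unadjusted p under 0.05 numbered from 216 of 15517 (1.39%) among those detected on all 4 arrays to 1863 of 47228 (3.94%) without a detection filter, against 382 of 18200 (2.1%). The cause of the higher share without the filter was not tested. Of 107 values of member probes under these alternatives, 104 kept their direction, and none passed the threshold. The 3 exceptions came from leaving out 1 siRNA. EGFR by its brightest probe (-0.03) then ranged from -0.17 to 0.15, the latter without siRNA 1. ERBB2 (-0.11) and ERBB3 (-0.13) each ranged from -0.22 to 0.01, the latter without siRNA 2.

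The 2 member genes above the control with all siRNAs became 1 with median scaling, since ERRFI1 then fell just below it with siRNA 2. They numbered 2 to 3 when 1 siRNA was left out. The 1 gene below became 2 of 9 without the detection filter, as more genes were then included, and 1 to 3 when 1 siRNA was left out, a looser criterion with fewer arrays. Among the genes of the pathway lists, those above numbered 16 to 22 and those below 19 to 21 when 1 siRNA was left out, against 13 each. The median ratio of the member genes moved by less than its SD over the siRNAs (0.15) under every alternative run. No paired analysis was possible because the control group has 1 array and so shares no 2 numbers with siEPEL. Slide or scan date as a block was not run, since the files used here carry neither. The 8 member probes not detected on any array, among them those of ERBB4, BTC, the short ERBB3 form and 2 of the 3 annotated to short EGFR forms, were limited by signal at background.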
